A study of Mus musculus with 14 samples.

Results

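The 9 genes described here encode brakes on mitogen-activated protein kinase (MAPK) signalling, namely Spred1, Spred2, Spry1, Spry2, Spry4, Dusp1, Dusp2, Dusp4 and Dusp6. They were chosen by gene name, and all 9 were found among the 21444 Ensembl genes of the mRNA tables. The samples were bone marrow derived macrophages of C57BL/6 mice, grown from femur and tibia marrow in medium with 20% L929 supernatant, which supplies the growth factor CSF1. The labels' protocols give 6 days of culture and the design text gives 7 days. Knockout (KO) cells carried ELAVL1f/f with LysM-Cre, and wild type (WT) cells carried ELAVL1f/f with no Cre, so both genotypes held the floxed allele of Elavl1. LysM-Cre is a recombinase driven from the Lyz2 gene in myeloid cells, so KO and WT cells also differ by the presence of Cre. Each genotype had 4 mRNA libraries, numbered 1 to 4, and 1 AGO2 PAR-CLIP library. Small RNA was sequenced from KO 3 and KO 4 and from WT 1 and WT 2. The design text calls the mRNA samples biological repeats, but no label ties a number to a mouse, so the p-values measure the spread between these libraries.

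MAPK cascades carry the signal of the CSF1 receptor and of Toll-like receptors in macrophages, and their products include the genes that switch them off. SPRED and Sprouty proteins act upstream, on the Ras and Raf step that leads to the kinase ERK, and SPRED proteins bring the Ras inhibitor neurofibromin to the membrane. Dual specificity phosphatases (DUSPs) act downstream, by removing the activating phosphates from ERK, p38 or JNK. Several of these messages are short-lived and carry AU-rich elements, the kind of sequence that ELAVL1 (HuR) binds. MicroRNAs (miRNAs) guide AGO2 to 3′ UTRs mainly through their seed, bases 2 to 8.

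The mRNA libraries held 8160789 to 25030262 counts, and the AGO2 tables held 6445262 reads in 85458 groups in KO and 6287870 reads in 66451 groups in WT. A group is a cluster of overlapping reads, and a T-to-C conversion within it marks a crosslinked uridine. Elavl1 itself averaged 69.5 ± 6.13 counts per 1000000 (CPM) in KO and 63.5 ± 2.00 CPM in WT (SD, n = 4 each). These counts cover the whole gene, so they do not tell the floxed part from the rest and check no label. Lyz2, the host of the Cre, averaged 5067 ± 1004 CPM in KO and 12428 ± 2555 CPM in WT (SD, n = 4 each), and every KO library lay below every WT library. The macrophage marker list summed to 8963 to 10151 CPM in KO and 9362 to 9847 CPM in WT, with all 7 measured markers detected. Libraries numbered 3 and 4 stood apart from those numbered 1 and 2 in both genotypes. They also held more counts, 22920606 to 25030262, against 8160789 to 19547964 in numbers 1 and 2.

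The strongest AGO2 site of the 9 genes lay in the 3′ UTR of Spred1, which encodes a membrane-bound suppressor of Ras and Raf. Its group spanned chr2:117005259-117005287 on the plus strand of mm9 in KO and chr2:117005250-117005287 in WT. It held 25307 reads in KO and 39564 reads in WT. In both libraries it ranked 2 among all 3′ UTR groups, behind a group of Vmp1 that contains mature miR-21a, and it was the first once groups holding a mature miRNA were set aside. The third-ranked groups held 23370 reads in KO (Fos) and 34669 reads in WT (Ell2). The group alone made up 98.8% of the Spred1 3′ UTR reads in KO and 99.1% in WT. Conversions were recorded at 2 locations with 24403 events in KO and at 3 locations with 38496 events in WT. Its sequence is shown because it carries the main AGO2 signal of the family, beside the mature miR-142a-3p from RefSeq (GRCm38.p6), one of the abundant miRNAs of blood cells.
Spred1 strongest group, KO: aacaatgtatatatatatAACACTAtctg
miR-142a-3p: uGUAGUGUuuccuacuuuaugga
The capitals in the group mark AACACTA, the complement of bases 3 to 9 of miR-142a-3p, and those in the miRNA mark its seed. The longer WT group also holds AAACTGA, the complement of bases 3 to 9 of miR-223-3p, which the KO group does not. The AACACTA match covers bases 19 to 25 of the 29-base KO group and bases 28 to 34 of the 38-base WT group, 4 bases before the 3′ end of both. No 7mer matching bases 2 to 8, or bases 2 to 7 followed by A, of the 44 miRNAs examined was in this group. The search for matches to bases 3 to 9 was added after this sequence had been seen, so the match is a description.

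AACACTA without a seed 7mer of miR-142a-3p (ACACTAC or CACTACA) was present in 143 of 17420 KO 3′ UTR groups (0.821%) and in 174 of 22109 WT groups (0.787%). Spred1 led both sets and held 52.3% of their reads in KO and 53.2% in WT. The next group, in Cdkn1b, held 6111 reads in KO and 7948 reads in WT, and the median group held 34 reads in KO and 29 reads in WT. Groups with the seed 7mer numbered 238 in KO and 308 in WT, and the strongest of them, in Rbm47, held 11595 reads in KO and 12901 reads in WT. The files name this miRNA miR-142-3p, and its small RNA level was 11764 and 10516 CPM in KO 3 and KO 4, against 6919 and 9224 CPM in WT 1 and WT 2. The small RNA genotypes do not share a number, so genotype and number set cannot be told apart there. The deposited KO 4 small RNA table also names another number over one of its columns, and it was taken as its sample label gives it.

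**Figure D1:**
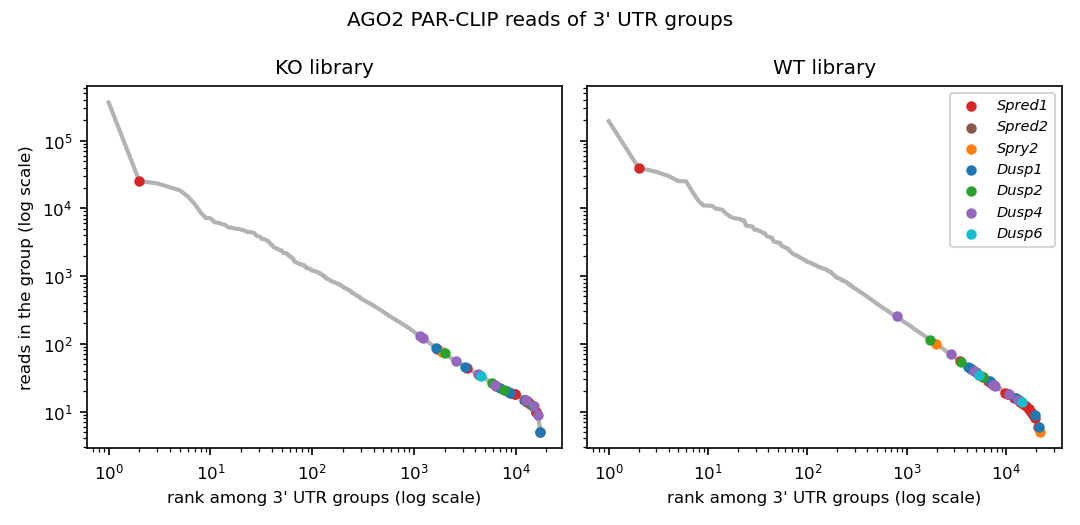
Reads of each 3′ UTR group (vertical, log scale) against its rank by reads (horizontal, log scale), in the KO library (left) and the WT library (right), with 1 library per genotype. The grey line follows all 3′ UTR groups and coloured points are groups of the named genes. The Spred1 point at rank 2 has 25307 reads in KO and 39564 in WT, while every other group of the family has at most 130 reads in KO and 254 in WT.

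Per 1000000 reads in all groups of its library (RPM), the strongest Spred1 group had 3926 RPM in KO and 6292 in WT, a ratio of 0.624 (exact 95% interval 0.614 to 0.634). With 1 library per genotype this ratio has no replicate check, and its interval covers counting error only, since reads amplified by PCR are not independent molecules. Over the 8535 sites that overlapped a single group of the other library the median ratio was 0.858, and the Spred1 ratio lay at percentile 33.2. Among the 164 of these sites with at least 1000 WT reads the median ratio was 0.660. Of these, 151 lay below 1, and the Spred1 ratio lay at percentile 41.5. They were picked by their WT reads, which by itself favours ratios under 1. Scaled to 3′ UTR reads the ratio was 0.747, and without groups holding a mature miRNA it was 0.881.

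Away from that site, Spred1 carried many weak groups. Its 3′ UTR held 15 groups in KO and 20 in WT, of which 7 in each library overlapped a group of the other library by at least 1 base. Without the strongest group their reads summed to 304 in KO and 368 in WT. That is 47.2 RPM in KO and 58.5 in WT, a ratio of 0.806 (0.690 to 0.941). All Spred1 3′ UTR groups together covered 389 bases in KO and 535 bases in WT. Beyond the 3′ UTR, Spred1 had 3 coding groups in KO and 2 in WT, and 4 intron groups in WT.

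**Figure D2:**
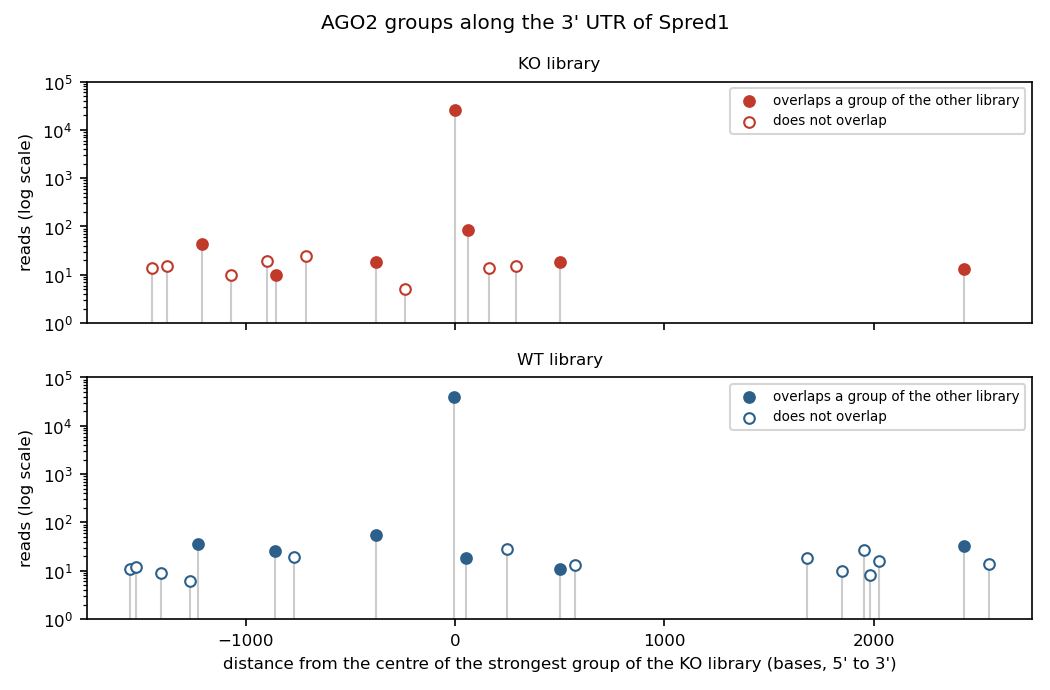
AGO2 groups of the Spred1 3′ UTR in KO (top) and WT (bottom), with reads per group on a log scale against the distance in bases of each group's centre from the centre of the strongest KO group. Filled points overlap a group of the other library and open points do not. A single site of 25307 reads in KO and 39564 reads in WT stands over neighbours of at most 85 reads in KO and 55 reads in WT.

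A choice of the other 3′ UTR sites, among the 2 with the most reads in their gene or with an 8mer, is shown next, each from the KO library unless WT is named. Capitals mark the complement of a seed, and sequences without capitals hold no 7mer of the miRNAs examined.
Spred1 second group: tatatgacagcttgAACTGACAacattatg
Spry2 group of both libraries: cacagtcacaaaatattatactaatatg
Spry2 WT group: taatatttgcaACTGTGAAaaaaaaacaag
Dusp1 strongest KO group: tttgcGTACTGTActatcttg
Dusp2 first site: ctctgataTGGTGCTcttctg
Dusp2 second site: ttatttgtgttcAACTGACAtttaacg
Dusp4 first site: attaaaaacaaacacaactaaacactctaa
Dusp4 second site: ctattggtctgtggtaaacgccatctttac
Dusp6 group of both libraries: ctaaacagcatattacctctg
The matching mature miRNAs, from RefSeq, have their seed in capitals.
miR-223-3p: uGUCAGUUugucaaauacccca
miR-27a-3p: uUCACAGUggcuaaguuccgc
miR-27b-3p: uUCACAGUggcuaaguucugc
miR-101a-3p: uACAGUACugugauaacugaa
miR-101b-3p: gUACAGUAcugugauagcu
miR-29a-3p: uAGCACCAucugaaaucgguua
miR-29b-3p: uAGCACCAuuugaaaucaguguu
An 8mer is a match to bases 2 to 8 followed by A. miR-27a-3p and miR-27b-3p share a seed, as do miR-29a-3p and miR-29b-3p.

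The second Spred1 group, at chr2:117005315-117005353 (plus strand, 30 of 39 bases shown), held an 8mer to miR-223-3p, a miRNA of the myeloid lineage. It had 85 reads in KO, and the overlapping WT group, which covered only its 5′ part and not the 8mer, had 18 reads. miR-223-3p itself stood at 414 and 331 CPM in KO 3 and KO 4, against 315 and 379 CPM in WT 1 and WT 2. A coding group of Spred1 held an 8mer to miR-15a-5p and miR-16-5p and had 42 reads in KO and 25 in WT. miR-126a-3p, which represses Spred1 in endothelial cells, had a 7mer in 1 KO group of 10 reads with no conversion, and no WT group of Spred1 held it. Its small RNA level was 391 and 531 CPM in KO 3 and KO 4, against 171 and 201 CPM in WT 1 and WT 2. The miR-15/16 and miR-126 sites were picked out after their values had been seen.

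Spry2, a Sprouty protein that dampens growth factor receptor signalling to ERK, had 1 group in its 3′ UTR in KO and 4 in WT. The shared group at chr14:106291503-106291530 (minus strand) had 76 reads in KO and 99 in WT, with as many conversion events as reads in both, a ratio of 0.749 (0.548 to 1.02). The WT group at chr14:106291549-106291579 (30 of 31 bases shown), with an 8mer to miR-27a-3p and miR-27b-3p, had 41 reads in WT and no overlapping KO group. Summed over its separately called 3′ UTR groups, Spry2 had 11.8 RPM over 28 bases in KO and 28.3 RPM over 98 bases in WT, at 76 reads per group in KO and 44.5 in WT. miR-27b-3p was about equal in the small RNA libraries, at 11754 and 12052 CPM in KO 3 and KO 4 and 11759 and 12052 CPM in WT 1 and WT 2. miR-27a-3p was at 5124 and 5306 CPM in KO 3 and KO 4, against 5754 and 5745 CPM in WT 1 and WT 2. Spred2, the close relative of Spred1, had 3′ UTR groups of 14 and 15 reads in KO and no 3′ UTR group in WT. Spry1 and Spry4 had no 3′ UTR group in either library. Spry1 had a single 5′ UTR group of 6 reads in KO, and the tables list no group under 5 reads.

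Dusp1, a nuclear phosphatase that acts mainly on p38 and JNK in macrophages, had 8 groups in its 3′ UTR in KO and 10 in WT, with 34.9 RPM in KO and 42.9 in WT. They covered 184 bases at 28.1 reads per group in KO and 239 bases at 27.0 reads per group in WT. Its site at chr17:26642729-26642749 (minus strand) held an 8mer to miR-101a-3p, which has been described as a regulator of Dusp1 in mouse macrophages. That site had 86 reads in KO and 46 in WT, a ratio of 1.82 (1.26 to 2.67). Conversion events were fewer in KO, at 28 (32.6% of its reads) in KO and 37 (80.4%) in WT. miR-101a-3p was at 656 and 784 CPM in KO 3 and KO 4, against 499 and 425 CPM in WT 1 and WT 2. The site also matches bases 2 to 8 of miR-101b-3p, which was at 1052 and 1169 CPM in KO 3 and KO 4, against 962 and 915 CPM in WT 1 and WT 2.

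Dusp2, a nuclear phosphatase of immune cells, had 5 groups in its 3′ UTR in KO and 3 in WT. Its site at chr2:127163663-127163683 (plus strand), a 7mer to the miR-29 family, had 72 reads in KO and 54 in WT, a ratio of 1.30 (0.901 to 1.89). The site at chr2:127163962-127163988, an 8mer to miR-223-3p, had 26 reads in KO and 115 in WT, where the group ran on to base 127164016. This ratio of 0.221 (0.138 to 0.340) was the lowest of the family, at percentile 4.14 of the 8535 matched sites.

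Dusp4, a nuclear phosphatase of ERK and JNK, had 8 groups in its 3′ UTR in KO and 7 in WT, with 62.7 RPM in KO and 70.9 in WT, a ratio of 0.884 (0.770 to 1.01). They covered 219 bases at 50.5 reads per group in KO and 220 bases at 63.7 reads per group in WT. The first site, at chr8:35882008-35882040 (plus strand, the first 30 of 33 bases shown), had 130 reads in KO and 254 in WT, a ratio of 0.499 (0.401 to 0.619). The second, at chr8:35882675-35882717 (first 30 of 43 bases shown), had 121 reads in KO and 40 in WT, a ratio of 2.95 (2.05 to 4.33). Its WT group ran from 35882689 to 35882723 and shared only 29 bases with the KO group. These 2 sites went in opposite directions between the libraries, while the interval of the summed ratio included 1. Over all matched sites 23% had a ratio of at most 0.5 and 14.1% a ratio of at least 2. Dusp6, a cytoplasmic phosphatase specific for ERK, had 1 group in its 3′ UTR in KO and 2 in WT, and a further 2 coding groups and 1 intron group in KO. Its shared site at chr10:98729851-98729871 (plus strand) had 34 reads in KO and 35 in WT.

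**Figure D3:**
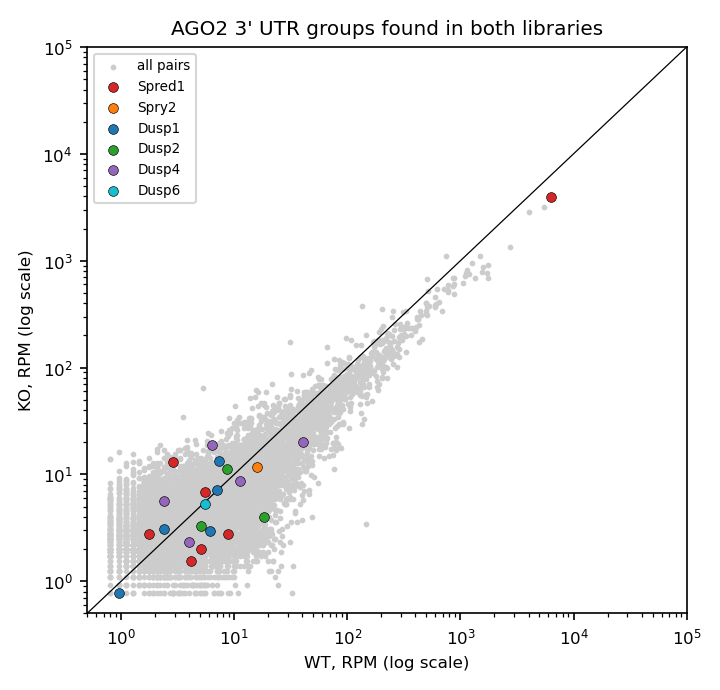
AGO2 RPM, reads per 1000000 reads in all groups (log scales), of 3′ UTR groups that overlap a single group of the other library, KO on the vertical and WT on the horizontal axis, with 1 library per genotype. Grey points are all 8535 sites, coloured points the 22 sites of the named genes, and the line marks equal values. Of the 22 sites 13 lie below the line, among them the Spred1 site at 3926 in KO and 6292 in WT.

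Taken over the family, 22 of 40 KO groups overlapped a WT group (55.0%, exact Clopper-Pearson 95% interval 38.5 to 70.7), beside 52.1% of all KO 3′ UTR groups. From the other side, 22 of 46 WT groups overlapped a KO group (47.8%, 32.9 to 63.1), beside 40.7% of all WT groups. Conversions were present in 31 of 40 KO groups (77.5%, all groups 81.6%) and in 40 of 46 WT groups (87.0%, all groups 86.9%). Among the 22 matched sites, 13 had a ratio under 1 (59.1%, all sites 58.3%), 6 a ratio of at most 0.5 (27.3%, all sites 23%) and 3 a ratio of at least 2 (13.6%, all sites 14.1%). These shares lie near those of all 3′ UTR sites. The strongest Spred1 site held 25307 of the 26545 reads of the family in KO and 39564 of the 41076 reads in WT.

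Seed 7mers were in 8 of 40 KO groups (20.0%, 9.05 to 35.6) and 8 of 46 WT groups (17.4%, 7.82 to 31.4) of the family, against 29.5% of all KO and 29.3% of all WT 3′ UTR groups. ATTTA, the core of AU-rich elements, was in 5 of 40 KO groups (12.5%, 4.19 to 26.8) and 7 of 46 WT groups (15.2%, 6.34 to 28.9). It was in 6.33% of all KO and 7.48% of all WT groups. Runs of at least 5 T were in 3 KO groups (7.5%) and 8 WT groups (17.4%) of the family, beside 9.83% of all KO groups and 10.96% of all WT groups. Motifs were read on the transcript strand, as deposited. For all 3 kinds of motif the interval of the family contained the share of all groups in both libraries.

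At the mRNA level the means of the 9 genes, given here in RPKM, a level per length, spanned 3 levels, the upper pair of which overlapped library by library. Dusp1 (13.0 to 37.6 RPKM over the 8 libraries), Dusp4 (5.51 to 30.8), Spred1 (11.9 to 20.7) and Dusp6 (10.1 to 27.1) had the highest means, and their ranges overlapped. In KO 1 Dusp4, at 5.51 RPKM, lay below Spred2, at 6.79 RPKM, and Dusp2, at 5.71 RPKM. Spry2 (4.97 to 7.97 RPKM), Spred2 (3.14 to 6.79) and Dusp2 (2.82 to 5.71) followed, again with overlapping ranges. Spry4 (0.0235 to 0.105 RPKM) and Spry1 (0 to 0.0541 RPKM) were barely detected. Spry4 had 1, 5, 6 and 14 counts in KO 1 to 4 and 5, 2, 5 and 7 counts in WT 1 to 4. Spry1 had 0, 3, 7 and 10 counts in KO 1 to 4 and 9, 1, 7 and 7 counts in WT 1 to 4. Both fell under the filter on low counts, so 7 of the 9 genes were tested. Spred1, with the strongest AGO2 site, thus had an mRNA range that overlapped those of Dusp1, Dusp4 and Dusp6.

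**Figure D4:**
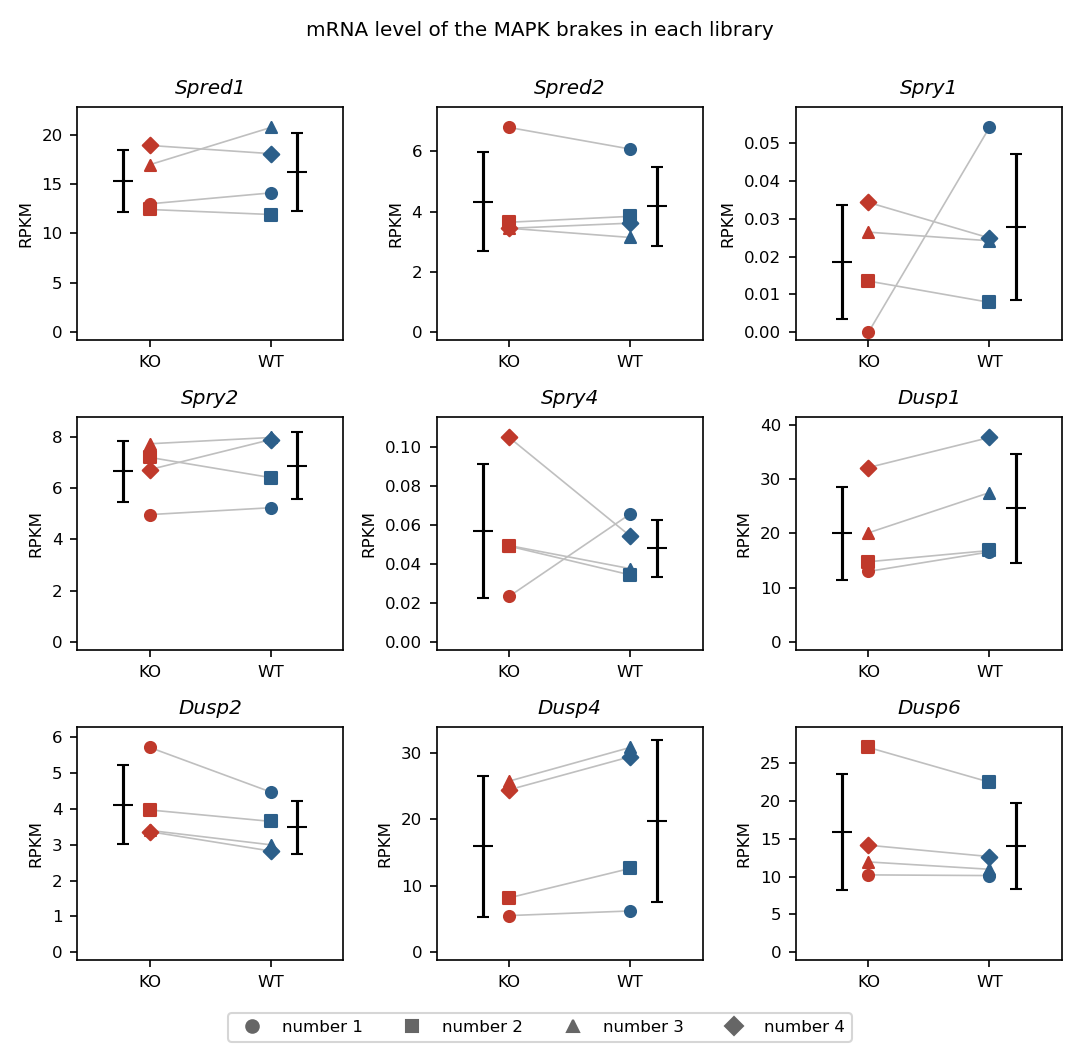
RPKM of each gene in each library, KO left and WT right in every panel, with symbols for the library numbers and grey lines joining equal numbers. Bars give the mean ± SD (n = 4 per genotype), and each panel has its own linear axis. KO and WT values overlap in all 9 panels, and Dusp1, Dusp4 and Spred1 are higher in numbers 3 and 4 of both genotypes.

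None of the 7 tested genes was called between KO and WT by edgeR's quasi-likelihood test, with a Benjamini-Hochberg adjusted p of 0.9999 for each. The same fit called 0 of 14019 genes (0%), and 81 genes (0.578%) had an unadjusted p under 0.05. It leaves the difference between number sets in its spread. It did not call Lyz2 either, at a log2 fold change of -1.29 (SE 0.23) and the same adjusted p. A missing call in this fit therefore does not show an unchanged level. KO and WT libraries of all 7 genes overlapped, whereas 0.785% of tested genes had groups without overlap. In these bulk libraries fewer cells of a type and less RNA per cell cannot be told apart. With the number fitted as a block, edgeR called 5 genes (0.0357%), none of them in the family. Lyz2 was among them, at an adjusted p of 0.000472 by the blocked edgeR test.

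Each of the 4 phosphatases kept 1 sign in all number pairs. Within numbers 3 and 4, however, KO 3 went with WT 4, and KO 4 with WT 3, about as well as equal numbers did. In those crossed pairs Dusp1 in KO 4 (69.5 CPM) lay above WT 3 (60.4 CPM). Dusp6 in KO 3 (37.9 CPM) likewise lay below WT 4 (39.9 CPM), while Dusp2 and Dusp4 kept their signs. Dusp1 had 29.8, 33.4, 44.3 and 69.5 CPM in KO 1 to 4, against 36.9, 38.6, 60.4 and 82.4 CPM in WT 1 to 4. It was lower in KO in 4 of 4 pairs, with a log2 fold change of -0.30 (SE 0.34) without the block and -0.30 (SE 0.08) with it. The blocked edgeR test gave an unadjusted p of 0.00431 and an adjusted p of 0.276, so Dusp1 did not pass.

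Dusp4 had 17.8, 26.1, 80.0 and 74.7 CPM in KO 1 to 4, against 19.5, 40.7, 95.5 and 90.9 CPM in WT 1 to 4. It too was lower in KO in 4 of 4 pairs, by -0.13, -0.64, -0.25 and -0.28 on the log2 scale. Its fitted log2 fold change was -0.31 (SE 0.60) without the block and -0.33 (SE 0.10) with it, and the blocked edgeR adjusted p was 0.300. Leaving out WT 3 brought the unblocked value to -0.01, and leaving out WT 4 brought that of Dusp1 to -0.03. Each of these fits leaves the number sets uneven between the genotypes. With the block and 1 number pair left out, Dusp4 ran from -0.38 to -0.24 and Dusp1 from -0.34 to -0.25.

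Dusp2 and Dusp6 lay on the other side in all number pairs. Dusp2 had 10.8, 7.42, 6.19 and 6.03 CPM in KO 1 to 4, against 8.23, 6.91, 5.44 and 5.11 CPM in WT 1 to 4, a log2 fold change of 0.24 (SE 0.26). Dusp6 had 33.8, 88.2, 37.9 and 44.1 CPM in KO 1 to 4, against 32.5, 74.1, 34.7 and 39.9 CPM in WT 1 to 4, a log2 fold change of 0.17 (SE 0.37). Number 2 was the highest Dusp6 library in both genotypes. Without KO 2 the Dusp6 value was -0.23 and without WT 2 it was 0.52, whereas without number 2 of both genotypes the blocked value was 0.11, with the other 3 pairs all above 0. Neither passed with the block, at edgeR adjusted p values of 0.627 for Dusp2 and 0.604 for Dusp6. In all, 4 of the 7 genes kept 1 direction in every pair, against 17.8% of all genes tested. Of these 4, Dusp1 and Dusp4 were lower in KO (8.26% of all genes) and Dusp2 and Dusp6 higher (9.52% of all genes). The blocked fit gave 2 of the 7 an unadjusted p under 0.05, against 9.42% of all genes. With the number set as a covariate instead, edgeR gave 0 of the 7 such a p, against 457 of all 14019 genes.

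The upstream brakes had no shared direction. Spred1 had 87.9, 82.9, 110 and 121 CPM in KO 1 to 4, against 92.7, 80.5, 134 and 117 CPM in WT 1 to 4, a log2 fold change of -0.08 (SE 0.21) with 2 of 4 pairs lower. Spred2 had 66.8, 35.4, 32.6 and 32.0 CPM in KO 1 to 4, against 58.0, 37.7, 29.6 and 33.98 CPM in WT 1 to 4, a log2 fold change of 0.06 (SE 0.30). Number 1 was the highest Spred2 library in both genotypes. Spry2 had 8.92, 12.7, 13.3 and 11.4 CPM in KO 1 to 4, against 9.13, 11.5, 13.7 and 13.5 CPM in WT 1 to 4, a log2 fold change of -0.04 (SE 0.21) with 3 of 4 pairs lower. The lower AGO2 reads at the strongest Spred1 site in KO thus stood beside Spred1 mRNA levels whose KO and WT ranges overlapped.

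**Figure D5:**
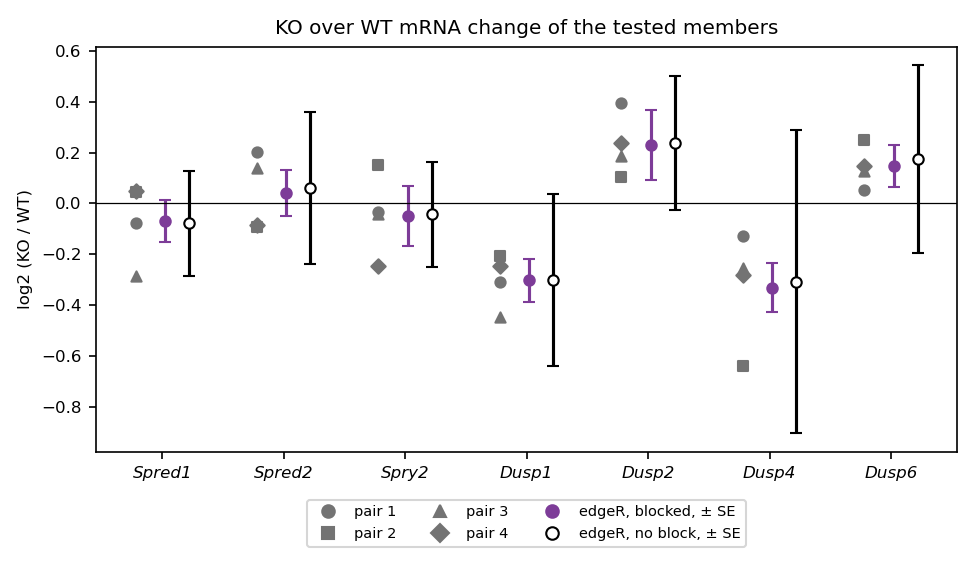
Log2 ratio of KO over WT for the 7 tested genes, with grey symbols for the 4 number pairs (from CPM), purple points for the edgeR estimate with the number as a block and open points for the estimate without it, both ± SE. Dusp1 and Dusp4 lie below 0 and Dusp2 and Dusp6 above 0 in every pair, and the unblocked error bars of all 7 genes span 0.

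For all 7 genes the fitted difference between number sets was larger in size than that between genotypes. The split into numbers 3 and 4 against 1 and 2 was drawn from these same libraries, so its values describe the split. Dusp4 averaged 85.3 ± 9.56 CPM in numbers 3 and 4 and 26.04 ± 10.4 CPM in numbers 1 and 2 (SD, n = 4 each), a log2 difference of 1.72 (SE 0.22). Dusp1 averaged 64.1 ± 16.01 CPM in numbers 3 and 4 and 34.7 ± 3.89 CPM in numbers 1 and 2. Spred1 averaged 121 ± 10.2 CPM in numbers 3 and 4 and 86.0 ± 5.43 CPM in numbers 1 and 2. Spred2 went the other way, at 32.1 ± 1.82 CPM in numbers 3 and 4 and 49.5 ± 15.4 CPM in numbers 1 and 2, as did Dusp2 at 5.69 ± 0.503 CPM in numbers 3 and 4 and 8.35 ± 1.74 CPM in numbers 1 and 2. Those 5 of 7 genes passed edgeR's adjusted p of 0.05 with genotype in the fit, as did 51.2% of all genes. The same 5 had sets that did not overlap, as did 49.6% of all genes. Spry2 and Dusp6 did not pass, at adjusted p values of 0.148 and 0.166. The genotype effect was called different between the sets for none of the 7 genes, nor for any of the 14019 tested (edgeR interaction, 0%). An unadjusted p under 0.05 in this interaction test was reached by 0.949% of all genes.

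Several marker lists of other cells moved with the number sets too, between which 51.2% of all genes tested were called. The T or B cell list (8 of 8 genes detected) summed to 32.7 to 86.3 CPM in numbers 3 and 4 and 1.68 to 2.95 CPM in numbers 1 and 2. It rested mostly on Igkc, an immunoglobulin chain, and 1 of its 3 tested genes was called higher. Of 6 tested endothelial markers 2 were called higher and 2 lower in numbers 3 and 4. Their list (8 of 8) summed to 101 to 131 CPM in numbers 3 and 4 and 41.4 to 52.8 CPM in numbers 1 and 2, and the mast cell or basophil list (7 of 7) to 10.7 to 15.6 CPM in numbers 3 and 4 and 1.87 to 4.33 CPM in numbers 1 and 2. Of 14 tested fibroblast or stromal markers 10 were called higher and 1 lower in numbers 3 and 4, with a median log2 difference of 2.97. Their sum, most of which is Lox (249 ± 144 CPM in KO and 237 ± 80.8 CPM in WT, SD, n = 4 each), was 201 to 292 CPM in numbers 3 and 4 and 309 to 422 CPM in numbers 1 and 2. With genotype, all 14 tested fibroblast or stromal markers had a fitted value above 0 without the block, none of them called, and their list summed to 244 to 422 CPM in KO and 201 to 341 CPM in WT. With the block none was called either. In that edgeR fit 7 of the 14 had an unadjusted p under 0.05, all higher in KO, against 9.42% of all genes, and Lox was at -0.07 (SE 0.14). The neutrophil list (12 of 12) summed to 27.8 to 80.1 CPM in KO and 12.5 to 52.3 CPM in WT. Without the block 8 of its 9 tested genes had a fitted value above 0 and 1 below. With the block 5 of its 9 tested genes had an edgeR unadjusted p under 0.05, all higher in KO, and none was called. Its sums in numbers 3 and 4, 42.6 to 65.8 CPM, lay within the 12.5 to 80.1 CPM of numbers 1 and 2. Of its 9 tested genes 2 were called higher in numbers 3 and 4 and 0 lower. Of 7 tested macrophage markers 3 were called higher in numbers 3 and 4 and 0 lower. The part of other cells in the levels of the 9 genes was not tested.

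No gene of the other pathway lists passed the test between genotypes either. Of 22 other tested MAPK brakes, 0 were called by edgeR with or without the block, and their median log2 fold change was 0.01, beside -0.04 for the 7 genes and 0.00 for all genes. The furthest were Dusp5, a nuclear ERK phosphatase, at -0.73 (SE 0.35), the ubiquitin ligase Cblb at 0.51 (SE 0.61) and the Ras GTPase activator Dab2ip at -0.44 (SE 0.39). Dusp5 averaged 1.45 CPM in KO and 2.46 CPM in WT. With the block Dusp5 was at -0.745 (SE 0.25), Cblb at 0.39 (SE 0.11) and Dab2ip at -0.41 (SE 0.27). Their blocked edgeR adjusted p values were 0.364, 0.294 and 0.654. None of 21 genes from the CSF1 receptor to ERK was called, with a median of 0.04, the furthest being the adaptor Gab2 at 0.22 (SE 0.15), the kinase Rps6ka3 at -0.21 (SE 0.43) and the kinase Araf at 0.15 (SE 0.18). None of 13 p38 and JNK cascade genes was called, with a median of 0.02. Among them were Mapk11, a p38 kinase, at -0.43 (SE 0.43), the kinase Map3k1 at 0.32 (SE 0.13) and Mapk8, which encodes JNK1, at -0.29 (SE 0.22). With the block Mapk11 was at -0.41 (SE 0.15), Map3k1 at 0.32 (SE 0.07) and Mapk8 at -0.28 (SE 0.13). Their blocked edgeR adjusted p values were 0.425, 0.171 and 0.539. An unadjusted p under 0.05 in that fit was reached by 9.42% of all genes. Of the 22 other brakes 1 lower and 2 higher genes reached it, of the 21 genes 0 and 1, and of the 13 genes 1 and 1.

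The list of genes induced by ERK had a median of 0.09 over 17 tested, 9 above 0 and 8 below, with none called. With the block the median was 0.15 and again none was called. In that edgeR fit 3 of the 17 had an unadjusted p under 0.05, all higher in KO, against 9.42% of all genes. These were Jun at 0.22 (SE 0.07), Ier2 at 0.28 (SE 0.11) and Egr1 at 0.49 (SE 0.21), at edgeR adjusted p values of 0.383, 0.446 and 0.502. The furthest without the block were the receptor Il1rl1 at -0.75 (SE 1.15), and the immediate early factors Fosb at 0.60 (SE 0.52) and Egr1 at 0.53 (SE 0.33). Il1rl1, at 0.42 CPM in KO and 0.66 CPM in WT, and Fosb, at 0.56 CPM in KO and 0.37 CPM in WT, were barely detected. The 8 regulators of AU-rich elements had a median of 0.12 and none was called. Zfp36, which encodes tristetraprolin, was at 0.36 (SE 0.21), its relative Zfp36l2 at 0.18 (SE 0.25) and the binding protein Tial1 at -0.14 (SE 0.13). With the block Zfp36 was at 0.35 (SE 0.08), Zfp36l2 at 0.21 (SE 0.09) and Tial1 at -0.14 (SE 0.09). Their blocked edgeR adjusted p values were 0.202, 0.489 and 0.642. In that fit 2 of the 8 had an unadjusted p under 0.05, both higher in KO, against 9.42% of all genes.

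Across the 8 libraries the 7 genes did not share a profile. Likeness was the root mean square difference of centred log2 CPM over the 8 libraries, where a smaller value means a closer profile. Dock5 (0.04) was among the nearest to Spred1. Nearest to Spred2 were Tada2b (0.09) and Smg5 (0.09), and to Spry2 Sord (0.04) and Serhl (0.07). Nearest to Dusp1 were Gm5697 (0.16) and Neto2 (0.17), and to Dusp2 Cpne1 (0.05) and Ppm1h (0.08). Dusp4 was closest to Gm49339 (0.15) and Raet1e (0.16), and Dusp6 to Fam131a (0.11) and 2510002D24Rik (0.12). Within the family the closest profiles were those of Spred2 and Dusp2 (0.18), where Dusp2 came at place 182 of 14018 genes from Spred2, and the others stood further apart.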

How the data were processed

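Each mRNA table holds read counts and RPKM values per Ensembl gene, as the authors deposited them. The small RNA tables hold counts of 485 mature miRNAs, and the AGO2 tables hold groups with position, sequence, reads and conversions. The submitters' processing notes name CASAVA 1.8.2, Bowtie 0.12.7 and mm9. Not given in the sources used here are the gene counter, the group caller and any use of strand. All coordinates stand as deposited, and whether a chromosome starts at 0 or 1 there could not be settled. Reads shared with overlapping genes or near-identical copies could not be told apart.

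A name table matched 19328 of 21444 identifiers. RPKM gave the levels, as deposited by the authors. The counts were tested with edgeR 4.0.16 (R 4.3.3, TMM, filterByExpr, 14019 genes, adjusted p under 0.05), with genotype alone as the main design. The fits were run on simulated data too. Those data held no difference between number sets, so they do not check the fits under the spread seen here. CPM use the TMM library sizes. An alternative fit used DESeq2 1.42.0. Groups were compared on the same strand with bedtools 2.31.1, numpy 2.4.6, pandas 2.3.3 and scipy 1.17.1. AGO2 RPM are reads per 1000000 reads in all groups of a library. Of 51 listed miRNAs, 44 had a RefSeq mature sequence.

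Same-numbered KO and WT libraries deviated together from their group means, with r of 0.754, 0.797, 0.741 and 0.797 from number 1 to number 4. Each exceeded 0.1, so the number was also fitted as a block. KO 3 with WT 4 gave 0.827 and KO 4 with WT 3 gave 0.758, so within numbers 3 and 4 this shows the set rather than the pair. The pairing comes from these values and not from the labels.

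The 9 genes, the gene lists and the miRNA list were chosen with earlier results of these data known. Named besides the 9 genes were Elavl1, Lyz2, the 3 tested genes of each pathway list with the largest absolute fold change or any called, the 2 nearest profiles of each gene (1 is not reported here), and for each gene and genotype up to 2 converted 3′ UTR groups with the most reads, with miRNAs of at least 100 CPM. Other sites are named as picked out later.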

Additional observations from a re-analysis of the deposited data

Results flagged for a closer look

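Spred2 in KO 1, the mRNA library with the fewest counts (8160789), stood apart from the other KO libraries. It had 66.8 CPM there, against 35.4, 32.6 and 32.0 CPM in KO 2 to KO 4, and its gap to the nearest library exceeded Dixon's 95% critical value for 4 samples. WT 1 was the highest WT library as well, at 58.0 CPM. Of 18 sets of 4 libraries examined this was the only one past its limit, and chance alone passes about 1 in 20. Without KO 1 the Spred2 log2 fold change was -0.26, against 0.06 with all libraries.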

How the results depend on the processing

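The family's calls between KO and WT did not move, with 0 of 7 genes called under every alternative fit. Dusp1 and Dusp4 stayed below 0 and Dusp2 above 0 in all 21 alternatives, Dusp6 in 20 of 21. Uncalled values near 0 changed sign when 1 library or pair was left out: Dusp6 ranged from -0.23 to 0.52, Spred1 from -0.19 to 0.058, Spred2 from -0.26 to 0.30 and Spry2 from -0.15 to 0.056. With the replicate block and a pair left out, Spred1 was at 0.0082 without number 3, Spred2 at -0.013 without number 1 and Spry2 at 0.019 without number 4. Spry2 was at 0.081 in numbers 1 and 2 alone. Across them Dusp1 ran between -0.61 and -0.03 and Dusp4 between -0.64 and -0.01. Genes past the threshold over the whole table, 0 in the fit without a block, numbered 5 with the replicate block, 1 with the number set as a covariate, 3 by DESeq2, 82 by DESeq2 with the replicate block and 14 in numbers 3 and 4 alone. Leaving out 1 number pair with the block gave 3 to 29, and the cause was not tested. The block changed no call in the family. Between number sets 5 of the 7 genes were called, and 3 to 6 when 1 library was left out.

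Groups with at least 2 conversion locations numbered 7 in KO and 7 in WT. Counting 8mers alone left 3 groups with a seed match in KO and 3 in WT, as did asking for 2 conversion locations. TATTTAT was in 2 KO and 3 WT groups, and runs of at least 7 T in 0 KO and 2 WT groups. These settings are stricter by construction. The ratio of the strongest Spred1 group was 0.747 per 3′ UTR reads and, in a scaling chosen after seeing the data, 0.881 without groups holding a mature miRNA. Summed Spred1 reads had a ratio of 0.626, and 0.806 without that group, also chosen afterwards. Reads of weak groups and the 1 AGO2 library per genotype limit every comparison of sites.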
